A study of Macaca mulatta with 24 samples.

Results

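The genes described here are 10 markers of astrocytes, led by GFAP, in the lateral geniculate nucleus (LGN) of monocularly deprived rhesus macaques: GFAP, VIM, AQP4, GJA1, SLC1A2, SLC1A3, GLUL, S100B, ALDH1L1 and SOX9. Members were taken by symbol from the annotation of the Rhesus Macaque Genome Array. On this array a probe set is a group of short oligonucleotides that are read together as 1 signal. A probe set counted as a member when the annotation gave it a single symbol and that symbol was one of the 10. This held for 17 of 52766 probe sets, which stood for 8 of the 10 genes. No probe set was matched to AQP4, the water channel of astrocyte endfeet, or to GJA1, the connexin of astrocyte gap junctions. Of the 17 probe sets, 13 reached a signal of 100 on at least 1 array and entered the tests, out of 37623 probe sets tested in all, and each of the 8 genes kept at least 1. The other 4, of which 3 were annotated to GLUL and 1 to VIM, had their highest signals between 38.5 and 88.0 and were not tested.

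Astrocytes are glial cells whose fine processes surround synapses and blood vessels. They clear glutamate through the transporters SLC1A2 and SLC1A3, turn it into glutamine with GLUL, and are coupled to each other by gap junctions. GFAP and VIM are proteins of their intermediate filaments, and a rise of GFAP is the classical sign of reactive astrocytes. In the LGN, retinal axons release glutamate onto relay neurons in layers that each serve 1 eye.

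The study asked how early loss of vision in 1 eye alters gene expression in single LGN layers. The left eye of 2 newborn macaques was deprived from birth, behind an opaque contact lens in the animal studied after 2 months and by tarsorrhaphy (sutured lids) in the animal studied after 4 months. Each of the 6 layers of both LGNs was taken by laser capture microdissection from several stained sections, without the koniocellular layers, and pooled into 1 sample, which gave 24 arrays after 2 rounds of RNA amplification. Signals are intensities on a linear scale, brought by the submitters to the same trimmed mean of 500.04 on each array. The groups were 8 deprived parvocellular layers (3 and 5 of the ipsilateral and 4 and 6 of the contralateral LGN), 8 nondeprived parvocellular layers (4 and 6 ipsilateral, 3 and 5 contralateral), 4 deprived magnocellular layers (2 ipsilateral, 1 contralateral) and 4 nondeprived magnocellular layers (1 ipsilateral, 2 contralateral). No animal with normal vision was used here, so that the nondeprived layers, driven by the open eye of the same animals, are the controls. The duration, the method of deprivation and the animal cannot be told apart. P-values therefore rest on how layers vary within 4 LGNs of 2 animals, and are too small as statements about animals.

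The arrays correlated with each other at a mean r of 0.885 to 0.919 over probe sets, except for 1 array, the deprived layer 2 of the ipsilateral LGN after 2 months, at 0.811. The ratio of 3′ to 5′ GAPDH signals, a measure of RNA length after amplification, was 50.8 on that array. Its median was 5.08 in deprived and 4.74 in nondeprived parvocellular layers, against 8.11 in deprived and 4.36 in nondeprived magnocellular layers. The blood marker HBB stayed between 46.3 and 199 on all arrays.

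The annotation gave GFAP 2 probe sets, and 1 of them, MmuSTS.4827.1.S1_at, rose in deprived parvocellular layers. The other, MmuSTS.1721.1.S1_at, did not, and the average of both was not called (log2 difference 0.45, adjusted p 0.121 in limma). Signals of MmuSTS.4827.1.S1_at had a lowest value of 3470, a median of 7071 and a highest value of 13218 in the 8 deprived layers, against 2616, 3006 and 4165 in the 8 nondeprived layers. The means were 7563 ± 3633 in deprived and 3283 ± 596 in nondeprived layers (SD, n = 8 each). In all, 6 deprived layers lay above every nondeprived layer, and the other deprived layers, layer 5 of the ipsilateral LGN after 2 months with 3691 and layer 4 of the contralateral LGN after 4 months with 3470, lay within the nondeprived range. The fitted difference, with the LGN as a block, was 1.07 on the log2 scale (SE 0.21), a fold of 2.11, with an adjusted p of 0.0184 in limma over all probe sets. The call was lost with signals under 50 set to 50 (adjusted p 0.0659) and with a variance prior that does not follow the signal (adjusted p 0.123). An exact permutation test of the deprivation labels within the LGNs gave p = 0.00309 (two-sided, 1296 permutations, smallest possible p 0.00154), in a family of 13 probe sets tested singly. More or fewer astrocytes in a captured layer and more or less GFAP RNA in each cell cannot be told apart in these pooled samples.

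**Figure D1:**
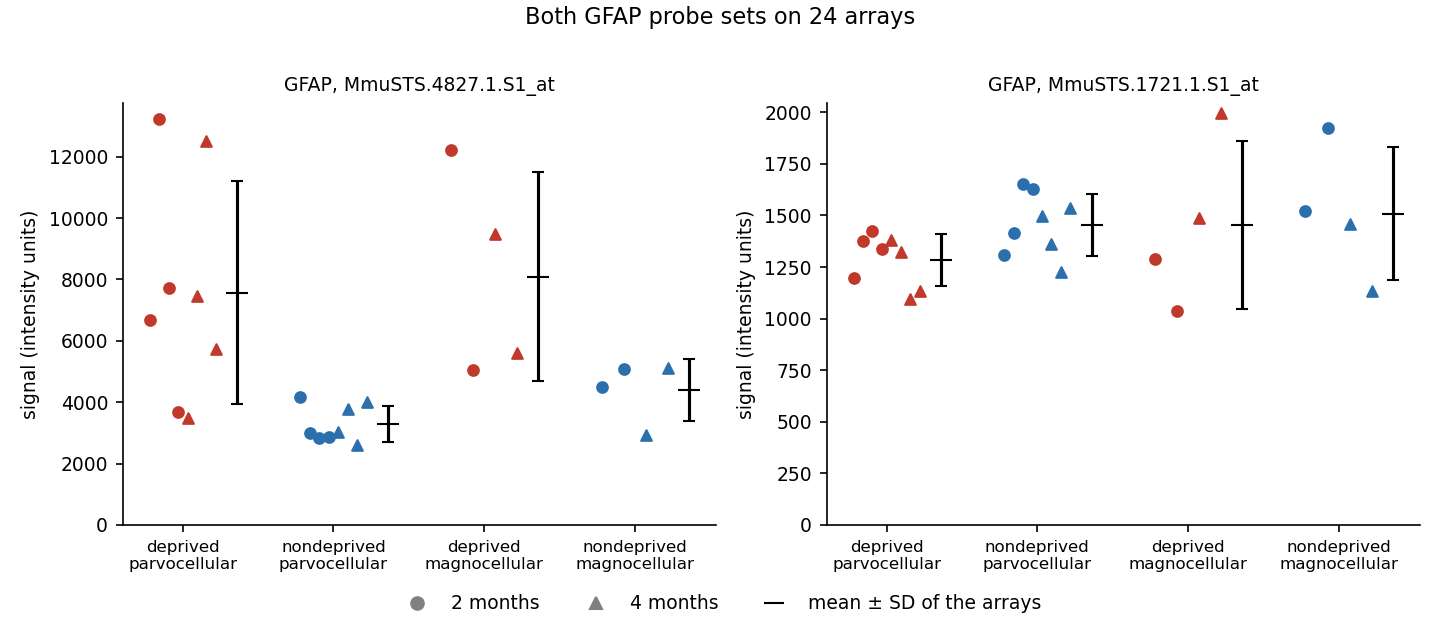
Signals (linear intensity units) of both GFAP probe sets on the 24 arrays, by group, with circles for the animal deprived for 2 months and triangles for the animal deprived for 4 months. Bars are mean ± SD. For MmuSTS.4827.1.S1_at the deprived parvocellular layers spread between 3470 and 13218 and the nondeprived ones between 2616 and 4165, while for MmuSTS.1721.1.S1_at the deprived layers lie between 1094 and 1426 and the nondeprived ones between 1227 and 1654.

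Of the 8 member genes, each counted by the probe set of the largest average log2 signal, 1 was called higher and 0 lower in deprived parvocellular layers. Over all 37623 probe sets, 0.585% were called higher and 0.385% lower. At an unadjusted p under 0.05, 2 of the 8 genes and 11.4% of all probe sets passed. The log2 fold change was positive for 7 of 8 genes, with a median of 0.22, where the median over all probe sets tested was -0.01.

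GFAP MmuSTS.4827.1.S1_at was higher in the deprived layer of 8 of 8 neighbouring parvocellular pairs (layers 3 with 4 and 5 with 6 of an LGN). The pair ratios, deprived over nondeprived, were 2.73 and 1.28 in the ipsilateral and 1.60 and 4.42 in the contralateral LGN after 2 months. After 4 months they were 4.78 and 1.44 in the ipsilateral and 1.15 and 1.98 in the contralateral LGN. The ratio therefore varied widely between pairs of the same LGN, and its mean over the 8 pairs was 2.42. The highest ratios came from deprived layer 3 of the ipsilateral LGN after 4 months and from deprived layer 6 of the contralateral LGN after 2 months. Within each LGN, the mean log2 difference was between 0.59 and 1.41 and positive in 4 of 4 LGNs. Without layer 5 of the contralateral LGN after 2 months, a nondeprived layer, the adjusted p was 0.0521, and the call held without each of the other 15 arrays.

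The second GFAP probe set, MmuSTS.1721.1.S1_at, did not show this rise. Its signals had a lowest value of 1094, a median of 1331 and a highest value of 1426 in deprived parvocellular layers, against 1227, 1456 and 1654 in nondeprived ones, so that the groups overlapped. The deprived layer was the lower one in 8 of 8 pairs. The fitted log2 difference was -0.18 (SE 0.09) and did not pass over all probe sets (adjusted p 0.501 in limma). The exact permutation test within LGNs gave p = 0.00772, not adjusted for the 13 probe sets tested singly. The log2 ratio of MmuSTS.4827.1.S1_at to MmuSTS.1721.1.S1_at within an array was higher by 1.25 in deprived than in nondeprived parvocellular layers (exact permutation p = 0.00309, two-sided), a comparison chosen after the data were seen. Both probe sets carry the same gene ID, and which part of the transcript each one reads was not examined here. When the 2 probe sets were averaged, the log2 difference was 0.45 with an adjusted p of 0.121.

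In magnocellular layers GFAP did not pass the test. MmuSTS.4827.1.S1_at gave 5038, 12236, 5594 and 9495 in deprived layers of the ipsilateral and contralateral LGN after 2 months and the ipsilateral and contralateral LGN after 4 months. The nondeprived magnocellular layers of the same LGNs, in the same order, gave 5070, 4503, 5115 and 2940. Both high values belong to layer 1 of the contralateral LGNs, while deprived layer 2 of the ipsilateral LGNs lay close to its nondeprived neighbour, and the groups overlapped. The log2 difference was 0.81 (SE 0.33, unadjusted p 0.0323, adjusted p 0.836 in limma), higher in 3 of 4 pairs. The exact permutation p was 0.25, where 4 pairs allow none below 0.125. Without the array that stood apart, a deprived layer 2, it was 1.09 (SE 0.32, adjusted p 0.822). For MmuSTS.1721.1.S1_at the difference was -0.07 (SE 0.31) with that array and 0.20 (SE 0.30) without it. The deprivation effect on GFAP MmuSTS.4827.1.S1_at differed between the layer classes by -0.26 (magnocellular minus parvocellular, log2, SE 0.39, 95% interval -1.06 to 0.54, adjusted p 0.914). For this probe set no difference between the classes was detectable.

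Of the 8 member genes, 0 were called higher and 0 lower in deprived magnocellular layers, as were 0% of all probe sets in either direction. At an unadjusted p under 0.05, 2 genes passed, GFAP and VIM, as did 5.68% of all probe sets. The median log2 difference over the 8 genes was 0.43, and over all probe sets it was 0.13. That overall shift came to -0.01 with quantile normalization and to -0.11 with the same median on each array, and small magnocellular differences are relative to it. Without the array that stood apart, 0 of the 8 genes were called as well. The differences of the other genes were then 1.16 for VIM MmuSTS.4634.1.S1_x_at, -1.03 for SLC1A2, 0.37 for SLC1A3 MmuSTS.3835.1.S1_at and 0.26 for GLUL MmugDNA.41364.1.S1_at. They were 0.37 for S100B, 0.23 for ALDH1L1 and 2.82 for SOX9. The remaining tested probe sets gave 0.34 and -0.08 for VIM, -0.30 for SLC1A3 and 0.19 for GLUL.

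VIM, the vimentin of astrocyte and endothelial filaments, had 3 tested probe sets, and none passed the threshold. For MmuSTS.4634.1.S1_x_at the lowest, median and highest signals were 1381, 1735 and 2529 in deprived and 1168, 1537 and 2440 in nondeprived parvocellular layers, with a log2 difference of 0.21 (SE 0.14, adjusted p 0.620). The other VIM probe sets differed by 0.13 (SE 0.13) and 0.10 (SE 0.16). Deprived and nondeprived parvocellular layers overlapped over most of their range for all 3.

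In magnocellular layers MmuSTS.4634.1.S1_x_at gave 1517, 2689, 2514 and 1898 in deprived layers, against 1303, 900, 923 and 1387 in nondeprived layers, both in the order given for GFAP. Each deprived value was above each nondeprived value. Such a separation was found for 4.07% of all probe sets in magnocellular layers and for 0.165% in parvocellular layers. The log2 difference was 0.92 (SE 0.31, unadjusted p 0.013, adjusted p 0.836). For the other 2 VIM probe sets the magnocellular differences were 0.13 (SE 0.30) and -0.31 (SE 0.35), so that the probe sets of VIM did not move together. The magnocellular effect on MmuSTS.4634.1.S1_x_at exceeded the parvocellular one by 0.71 (SE 0.27), which did not pass (adjusted p 0.702).

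**Figure D2:**
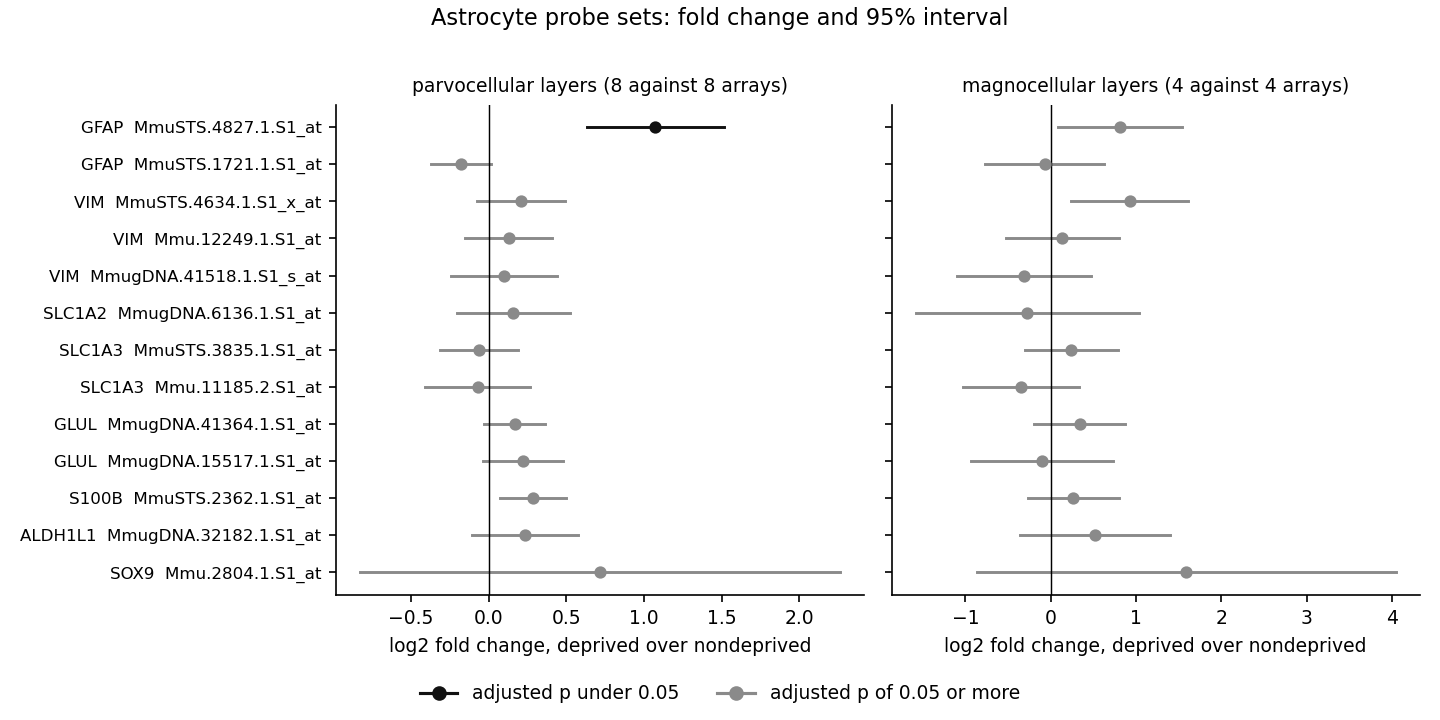
Deprivation effects (log2 fold change, deprived over nondeprived) on the 13 tested probe sets in parvocellular layers (left) and magnocellular layers (right), with 95% intervals from limma. The horizontal scales of the panels differ. GFAP MmuSTS.4827.1.S1_at in parvocellular layers, at 1.07, is the 1 probe set with an adjusted p under 0.05.

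The genes of glutamate handling were not called. SLC1A2, the main glutamate transporter of astrocytes, had signals of 4782, 15193 and 24493 (lowest, median, highest) in deprived and 7630, 9118 and 21667 in nondeprived parvocellular layers, with a log2 difference of 0.16 (SE 0.17, adjusted p 0.817). Its groups overlapped fully, and most signals were higher in the animal deprived for 4 months. The sources of the spread were not tested. Over all 12 layers the animal deprived for 4 months had a median of 20746 (9392 to 25524), against 8303 (2239 to 16315) in the animal deprived for 2 months. Of the 4-month layers, 11 lay above every 2-month layer, and 1, nondeprived layer 6 of the ipsilateral LGN at 9392, did not. In magnocellular layers SLC1A2 gave 13186, 2239, 16831 and 24343 in deprived layers, against 3320, 16315, 25524 and 18742 in nondeprived layers, a log2 difference of -0.27 (SE 0.59).

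SLC1A3, the glutamate transporter also known as GLAST, had 2 tested probe sets. MmuSTS.3835.1.S1_at had signals of 6432, 10504 and 14364 in deprived and 9658, 11069 and 14951 in nondeprived parvocellular layers. The second had 291, 458 and 1091 in deprived and 365, 522 and 732 in nondeprived parvocellular layers. The groups overlapped for both, with log2 differences of -0.06 (SE 0.12) and -0.07 (SE 0.16). Magnocellular differences were 0.24 (SE 0.25) for MmuSTS.3835.1.S1_at and -0.35 (SE 0.31) for the second. On the second probe set the animals separated without overlap, with 496 to 1152 in the 12 layers after 4 months and 266 to 436 in the 12 layers after 2 months. Of all probe sets tested, 1.03% separated the animals in this way. The difference between the animals is a description, since each duration was given by 1 animal.

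GLUL, glutamine synthetase, which oligodendrocytes also express, had signals on MmugDNA.41364.1.S1_at of 20232, 21996 and 23673 in deprived and 16653, 18727 and 27607 in nondeprived parvocellular layers. Of the 8 nondeprived layers, 7 were between 16653 and 20939, and layer 3 of the contralateral LGN after 4 months, at 27607, lay above every other parvocellular layer. The log2 difference was 0.17 (SE 0.09, adjusted p 0.538), higher in the deprived layer of 7 of 8 pairs. For MmugDNA.15517.1.S1_at it was 0.22 (SE 0.12, adjusted p 0.541), higher in 6 of 8 pairs. In magnocellular layers MmugDNA.41364.1.S1_at gave 32145, 25494, 26470 and 33942 in deprived layers, against 21495, 24291, 23657 and 23102 in nondeprived layers. All 4 deprived values were above all 4 nondeprived ones, where 4.07% of all probe sets separated the groups in either direction. The log2 difference was 0.34 (SE 0.24, adjusted p 0.840). MmugDNA.15517.1.S1_at did not share this rise, at -0.10 (SE 0.38).

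S100B, a calcium-binding protein of astrocytes that oligodendrocyte lineage cells also hold, had the next smallest p of the members after GFAP in parvocellular layers. Its signals were 6551, 8677 and 13122 in deprived and 5809, 7175 and 8411 in nondeprived layers (lowest, median, highest). The deprived layer was higher in 7 of 8 pairs and 4 of 4 LGNs, and the groups overlapped. The highest signal, 13122, came from layer 3 of the ipsilateral LGN after 4 months, where GFAP was also high. The log2 difference of 0.29 (SE 0.10, unadjusted p 0.0112) did not pass over all probe sets (adjusted p 0.233 in limma). The exact permutation test within LGNs gave p = 0.00617, not adjusted for the 13 probe sets tested singly. In magnocellular layers S100B gave 6436, 8804, 9684 and 7147 in deprived and 6725, 6435, 6632 and 6552 in nondeprived layers, with a log2 difference of 0.27 (SE 0.24, adjusted p 0.869).

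ALDH1L1, a folate enzyme used as a marker of most astrocytes, had low signals. They were 225, 281 and 329 in deprived and 149, 252 and 309 in nondeprived parvocellular layers, with a log2 difference of 0.23 (SE 0.16, adjusted p 0.660). Magnocellular layers gave 775, 501, 195 and 479 when deprived and 297, 330, 351 and 251 when nondeprived, a difference of 0.52 (SE 0.40). Its highest value, 775, was on the array that stood apart.

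SOX9, a transcription factor of astrocytes and their precursors, was near the detection limit. Its signal passed 100 on 3 of 24 arrays, and medians were 67.6 in deprived and 47.4 in nondeprived parvocellular layers, with ranges of 11.3 to 118 and 4.41 to 397. The log2 differences were 0.72 (SE 0.74) in parvocellular and 1.59 (SE 1.11) in magnocellular layers, and their standard errors are the widest among the members. With signals under 50 set to 50, the parvocellular difference was -0.15 (SE 0.39), so that the signals of SOX9 gave no direction.

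The deprivation effect was also compared between the animals, with the difference taken as the 4-month animal minus the 2-month animal in parvocellular layers. For GFAP MmuSTS.4827.1.S1_at the effect was 0.99 (SE 0.29) in the animal deprived for 4 months and 1.16 (SE 0.25) in the animal deprived for 2 months, and neither alone passed over all probe sets (adjusted p 0.489 and 0.193). Their difference was -0.17 (SE 0.43, 95% interval -1.07 to 0.74, adjusted p 0.983). Of the 8 genes, 0 were called higher and 0 lower, as were 0% of all probe sets each way, and 1 gene, SOX9, had an unadjusted p under 0.05 (difference 3.16, SE 1.33, p 0.0284). Between the layer classes, 0 of the 8 genes and 0% of all probe sets were called in either direction, and 1 gene, VIM, had an unadjusted p under 0.05.

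Across the layer classes, with deprivation status and LGN in the fit, 1 member gene was called. GLUL was lower in parvocellular than in magnocellular layers. On MmugDNA.41364.1.S1_at its signals had a lowest value of 16653, a median of 21165 and a highest value of 27607 in 16 parvocellular layers, against 21495, 24892 and 33942 in 8 magnocellular layers. The log2 difference was -0.32 (SE 0.09, adjusted p 0.0361), and the classes overlapped. The call depended on the processing. With quantile normalization the difference was -0.09 (SE 0.06, adjusted p 0.466), the call was also lost with each animal alone, and it was lost in 13 of the 24 fits that each left out 1 array, among them the fit without the array that stood apart (-0.28, adjusted p 0.0621). The probe set GLUL MmugDNA.15517.1.S1_at differed by -0.13 (SE 0.15).

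SLC1A3 MmuSTS.3835.1.S1_at, with a median of 10788 in parvocellular and 15291 in magnocellular layers, differed by -0.36 (SE 0.12, adjusted p 0.0939). Without the array that stood apart the difference was -0.43, with an adjusted p of 0.0379. ALDH1L1 had medians of 268 in parvocellular and 340 in magnocellular layers and differed by -0.50 (SE 0.18, adjusted p 0.140). GFAP MmuSTS.4827.1.S1_at differed by -0.28 (SE 0.19, adjusted p 0.506) and S100B by 0.13 (SE 0.09, adjusted p 0.536). In all, 0 of 8 genes were called higher and 1 lower in parvocellular layers, against 2.24% and 1.34% of all probe sets, and 3 genes had an unadjusted p under 0.05, as had 16.2% of all probe sets. The median over the 8 genes was -0.09 and over all probe sets -0.03.

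Among the 6 single layers, GLUL MmugDNA.15517.1.S1_at differed in the F test of limma (adjusted p 0.0316), as did 0.226% of all probe sets, while 0 of the 8 genes passed by the probe set that stands for them and 1, GFAP, had an unadjusted p under 0.05. Mean signals of MmugDNA.15517.1.S1_at in layers 1 to 6 were 3786 ± 980, 2023 ± 368, 3089 ± 737, 2286 ± 433, 2178 ± 268 and 2636 ± 833 (SD, n = 4 each, 2 deprived and 2 nondeprived). Layer 1 was highest and layer 2 lowest, and their ranges, 3077 to 5208 and 1626 to 2438, did not overlap. Layers next to each other in the order of the means (1, 3, 6, 4, 5, 2) had overlapping ranges, and the call was lost in 16 of the 24 fits that each left out 1 array.

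For GFAP MmuSTS.4827.1.S1_at the deprived layers 1, 3 and 6 had means of 10866, 10123 and 10343, and the deprived layers 2, 4 and 5 had means of 5316, 5073 and 4713 (n = 2 each). The nondeprived layers 1 to 6 had means of 5092, 3721, 3595, 2726, 3376 and 3436, a narrower range. The F test over layers gave an unadjusted p of 0.0012 and an adjusted p of 0.188. Outer (5 and 6) and inner (3 and 4) parvocellular layers differed by 0.05 (SE 0.22) for GFAP. Of the 8 genes, 0 were called higher and 0 lower in the outer layers, as were 0% of all probe sets, and 0 had an unadjusted p under 0.05.

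**Figure D3:**
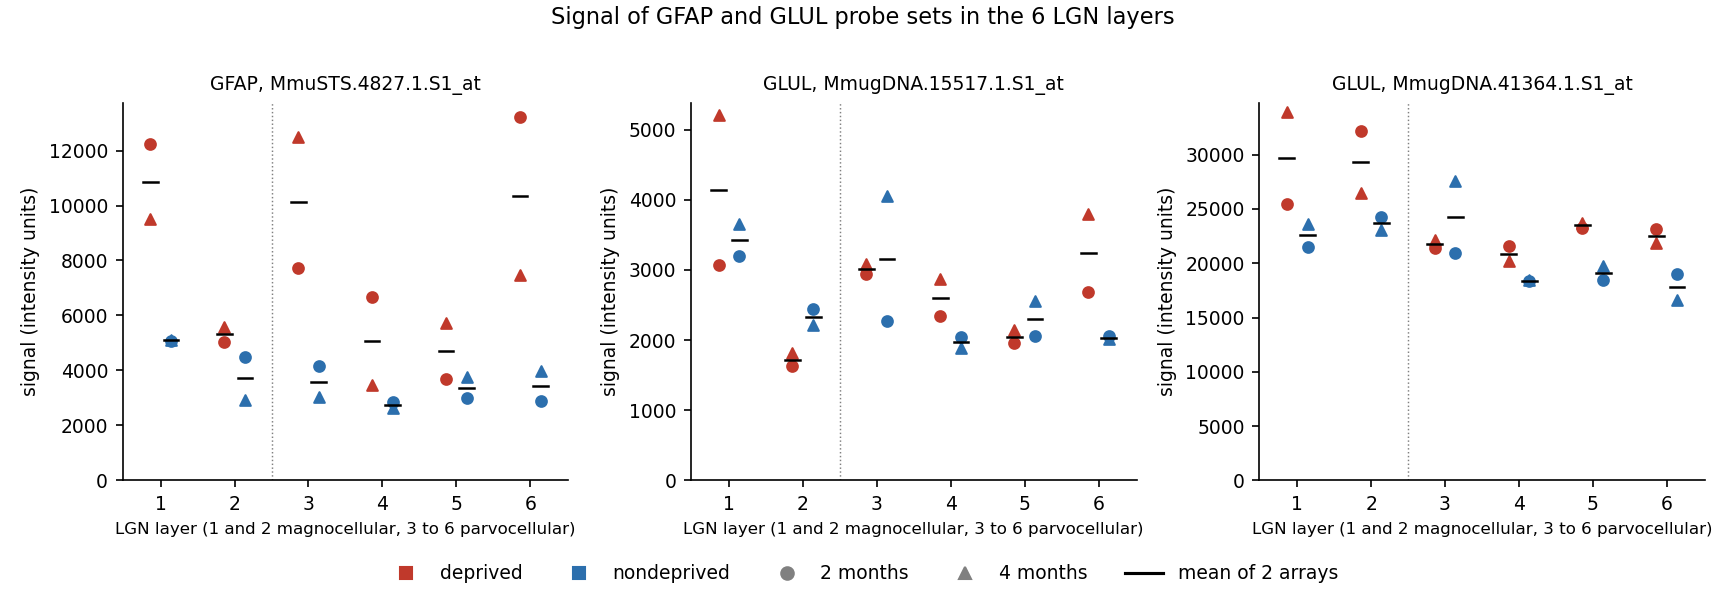
Signals (linear intensity units) in the 6 LGN layers of GFAP MmuSTS.4827.1.S1_at and of both tested GLUL probe sets, 4 arrays a layer, deprived in red left of nondeprived in blue. Short lines are means of 2 arrays. The deprived GFAP means are 10866, 10123 and 10343 in layers 1, 3 and 6 and 5316, 5073 and 4713 in layers 2, 4 and 5, and GLUL MmugDNA.15517.1.S1_at is highest in layer 1.

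Other astrocyte genes were examined as a list of 32, of which 22 were measured. In deprived parvocellular layers 3 of the 22 were called higher and 0 lower, against 0.585% and 0.385% of all probe sets. Of the 22, 9 had an unadjusted p under 0.05, against 11.4% of all probe sets. A positive difference was found for 16, with a median of 0.20 on the log2 scale. Over all probe sets, 48.7% were positive and the median was -0.01. AGT, the precursor of angiotensin that astrocytes make in the brain, averaged 4926 ± 1057 in deprived and 2773 ± 578 in nondeprived layers (SD, n = 8 each), a log2 difference of 0.83 (SE 0.13, adjusted p 0.00469). KCNJ10, the potassium channel of astrocyte membranes, averaged 6186 ± 1088 in deprived and 4693 ± 547 in nondeprived layers, a difference of 0.39 (SE 0.09, adjusted p 0.0355). SLC7A11, the cystine and glutamate exchanger, averaged 2292 ± 377 in deprived and 1598 ± 243 in nondeprived layers, a difference of 0.52 (SE 0.12, adjusted p 0.0389). Leaving out 1 array at a time left between 1 and 5 of the 22 called. In magnocellular layers 0 of the 22 were called, with 3 at an unadjusted p under 0.05 and 18 positive (median 0.31). Over all probe sets tested in magnocellular layers, 5.68% had an unadjusted p under 0.05 and 60.1% were positive, with a median of 0.13. AGT averaged 1393 ± 312 in deprived and 339 ± 108 in nondeprived magnocellular layers (n = 4 each). Its log2 difference was 2.06 (SE 0.31, unadjusted p 4.35e-05, adjusted p 0.398 in limma). The paper, which used increase calls and fold changes between layers, lists AGT as upregulated in deprived magnocellular layers. In the 4-month animal alone 1 of the 22 was called, as was 1 without nondeprived layer 2 of the contralateral LGN after 2 months.

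The same list also split between the layer classes. AGT was higher in parvocellular layers, at 3849 ± 1384 in 16 parvocellular and 866 ± 604 in 8 magnocellular layers, with a log2 difference of 2.44 (SE 0.17). KCNJ10 was lower there, at 5439 ± 1134 in parvocellular and 9839 ± 2868 in magnocellular layers, a difference of -0.83 (SE 0.12). SLC25A18, a mitochondrial glutamate carrier, was lower by 0.43 (log2 difference -0.43, SE 0.12, adjusted p 0.0336). In all, 1 gene of this list was called higher and 2 lower, against 2.24% and 1.34% of all probe sets. Of the 22 genes, 10 had an unadjusted p under 0.05, as had 16.2% of all probe sets. The 3 calls became 1 in the 4-month animal alone and with deprived layers only, 5 with a filter on the mean signal, and 2 to 5 with 1 array left out.

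Genes known from reactive astrocytes were a list of 32, with 22 tested. In deprived parvocellular layers 0 of them were called in limma and 5 had an unadjusted p under 0.05, against 11.4% of all probe sets. With signals under 50 set to 50, 1 was called, as was 1 with a filter on a mean signal of 100 or more. Of the 22, 14 were positive, with a median of 0.26, where 48.7% of all probe sets were positive. B3GNT5, a glycosyltransferase, differed by 0.73 (SE 0.20, adjusted p 0.0861) and TNC, the extracellular matrix protein tenascin C, by 0.89 (SE 0.25, adjusted p 0.0928). In magnocellular layers 0 of 22 were called and 0 had an unadjusted p under 0.05, with 18 positive and 4 negative (median 0.22). SERPINA3 had the smallest p of the list there and was lower in deprived layers. Its log2 difference was -0.57 (SE 0.27, unadjusted p 0.0603, adjusted p 0.836 in limma). SERPINA3 averaged 6263 in deprived and 8910 in nondeprived magnocellular layers. In parvocellular layers it averaged 7513 in deprived and 8411 in nondeprived layers. Between the layer classes, TNC was higher in parvocellular layers by 1.44 (SE 0.21), as was CRYAB, a small heat shock protein, by 0.58 (SE 0.14, adjusted p 0.0184). In all, 2 of the 22 were called higher and 0 lower, against 2.24% and 1.34% of all probe sets. These 2 calls became 1 without the variance trend, in the 4-month animal alone, with the LGN as a random block, with the GAPDH ratio as a covariate and with nondeprived layers only, and 0 with deprived layers only. With 1 array left out, 1 to 3 genes were called.

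**Figure D4:**
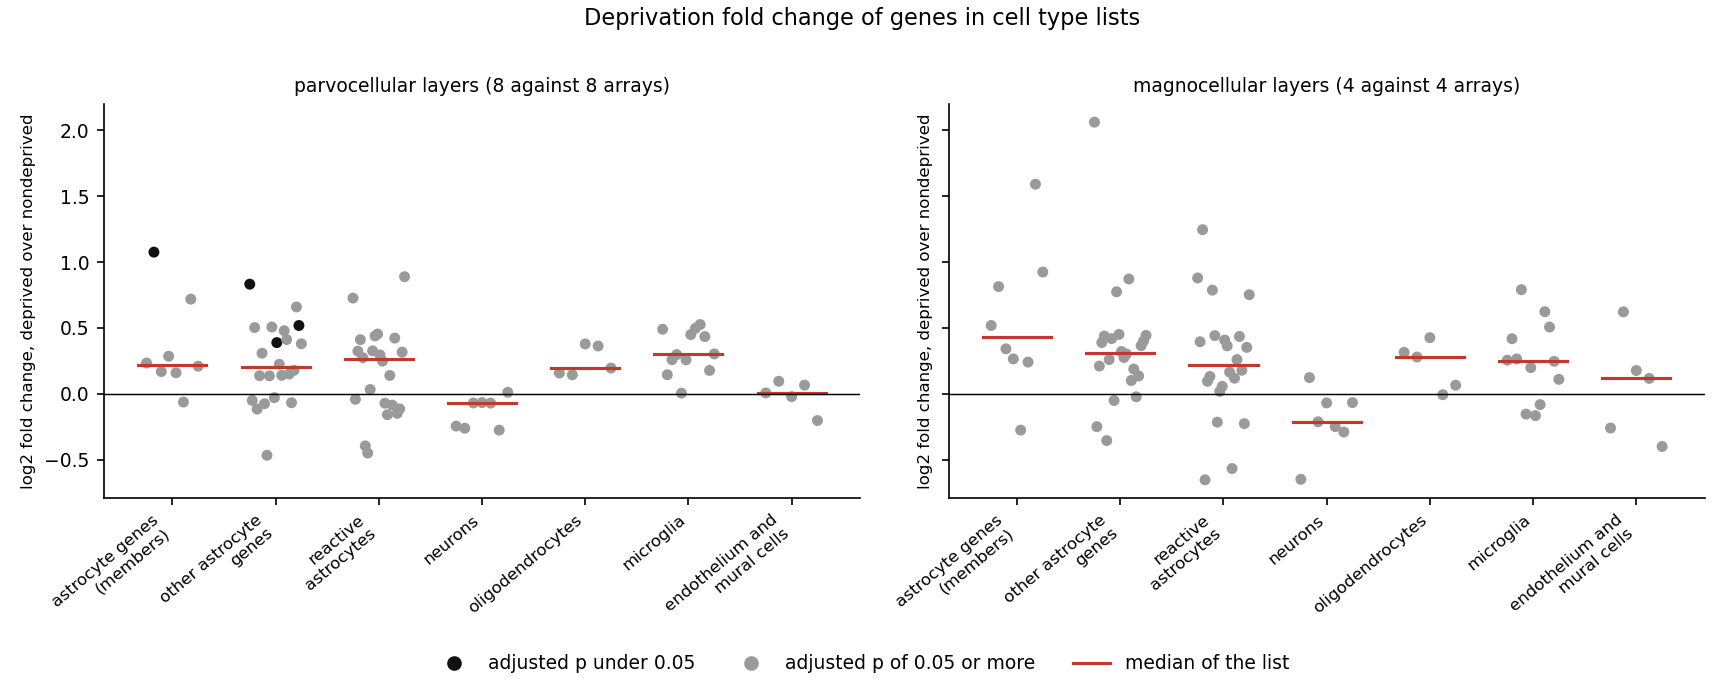
Deprivation effects (log2 fold change, deprived over nondeprived) on each measured gene in 7 lists, in parvocellular layers (left) and magnocellular layers (right). Points are genes, black where the adjusted p was under 0.05, and red lines are the medians of the lists. In parvocellular layers GFAP and 3 other astrocyte genes are the black points, and the medians are 0.22 for the member genes, 0.30 for microglia markers and -0.07 for neuron markers.

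No list of markers of other cells held a called gene in limma in deprived parvocellular layers. Over all probe sets there, 48.7% were positive and 11.4% had an unadjusted p under 0.05. Of 12 microglia markers, 12 were positive, with a median log2 difference of 0.30, 2 had an unadjusted p under 0.05, and ITGAM, a subunit of an integrin, came closest to the threshold at 0.50 (SE 0.12, adjusted p 0.0548). Summed over the list, the deprived parvocellular layers ranged over 7703 to 10759 and the nondeprived ones over 6520 to 9483. Of 5 oligodendrocyte markers, 5 were positive (median 0.20, 2 at an unadjusted p under 0.05), and the summed signals reached 57188 to 81007 in deprived layers, against 55204 to 73254 in nondeprived layers. Of 7 neuron markers, 6 were negative (median -0.07, 3 at an unadjusted p under 0.05), and their summed signals were 114038 to 143726 in deprived layers, against 122189 to 181003 in nondeprived layers. Of 3 markers of oligodendrocyte precursors, 3 were positive (median 0.21, 1 at an unadjusted p under 0.05). For 5 markers of endothelium and mural cells the median was 0.01, with 0 at an unadjusted p under 0.05. The part of the cell make-up of the captured layers in the GFAP difference was not tested.

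The genes whose log2 signal followed GFAP MmuSTS.4827.1.S1_at most closely over the 24 arrays were PLXNB2, a plexin receptor (r = 0.823), SEPTIN2, a cytoskeletal septin (0.784), RGN, or regucalcin (0.777), HS3ST4, a heparan sulfate sulfotransferase (0.769), and RHOC, a small GTPase (0.762). After the mean of each LGN by layer class was removed, they were NFIB, a transcription factor, on a probe set other than the one counted in its list (0.894), OTUD7B, a deubiquitinase (0.874), DHRS9, a dehydrogenase (0.864), HS3ST4 (0.863) and PLXNB2 (0.860). The median r over 19918 probe sets with a single symbol was 0.067 before and 0.061 after that step. Among the members S100B followed GFAP most closely, at 0.598 before and 0.756 after, while the second GFAP probe set stood at -0.254 and -0.236. The points of these correlations share LGNs, animals and deprivation status, and the values are descriptions.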

How the data were processed

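RNA of 24 laser-captured LGN layers was measured on Rhesus Macaque Genome Arrays. The deposited values are signal intensities per probe set that the authors made with Affymetrix GCOS, scaled to a trimmed mean of 500.04 (2% trimmed at each end). Parvocellular and magnocellular layers follow from the layer numbers of the labels. Gene symbols came from the platform annotation (24956 probe sets with 1 symbol, 361 with several, 27449 with none), and 99 control probe sets were left out.

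Signals under 1 were set to 1 and log2 was taken. Probe sets with a signal of 100 or more on at least 1 array were fitted in R 4.3.3 with limma 3.58.1 (eBayes with trend, statmod 1.5.0), with the LGN as a fixed block, and p-values were adjusted by Benjamini and Hochberg over all 37623 probe sets, threshold 0.05. Single probe sets were also tested by exact permutation within LGNs. The fit was tested on simulated data. Precision is limited by the number of arrays, and layers of an LGN are separate captures.

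The members and lists were chosen with earlier results of these data known. Named genes are all members, and from each other list the members past the threshold or else the 2 with the smallest p, of which those that bear on the members are printed, and the 5 genes most correlated with GFAP on each of both measures. Deviations from the mean of each animal and deprivation status were correlated between same-numbered parvocellular layers of an animal (-0.195 to 0.0837 over 8 pairs of arrays). Differences between its LGNs were left in and enter each pair with opposite signs, so that this check cannot decide on pairing. Alternatives were quantile and median scaling, other floors, filters and blocks, no trend, each animal alone, a GAPDH covariate, the mean over probe sets, subsets of layers and each array left out.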

Additional observations from a re-analysis of the deposited data

Results flagged for a closer look

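Arrays apart from their group were sought on linear signals within groups of 4 or 8 arrays. The rule flags about 1 in 20 for independent, normally spread values. Linear signals need not be so spread, and probe sets of 1 gene are not independent, so that the count is not compared with chance. In 8 of 52 cases examined (13 probe sets in 4 groups), 1 array lay apart from the rest of its group. Layer 3 of the ipsilateral LGN after 4 months, a deprived parvocellular layer, held the highest signal of its group for 3 of them, the second VIM probe set at 1379, with 943 as the next highest, VIM MmugDNA.41518.1.S1_s_at at 897, with 533 next, and S100B at 13122, with 9551 next. Among nondeprived parvocellular layers, layer 3 of the contralateral LGN after 4 months was highest for GLUL MmugDNA.41364.1.S1_at at 27607, with 20939 next, and for GLUL MmugDNA.15517.1.S1_at at 4057, with 2563 next. Layer 4 of the ipsilateral LGN after 4 months was highest for SLC1A3 MmuSTS.3835.1.S1_at at 14951, with 12039 next. SOX9 was highest at 332 in deprived layer 1 of the contralateral LGN after 2 months, with 59.8 next among deprived magnocellular layers, and at 397 in nondeprived layer 3 of the same LGN, with 81.9 next among nondeprived parvocellular layers.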

How the results depend on the processing

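GFAP MmuSTS.4827.1.S1_at in parvocellular layers was positive under every alternative run (0.45 to 1.35, adjusted p 0.00235 to 0.489) and with each array left out (0.944 to 1.22, adjusted p 0.0075 to 0.0521). It passed with quantile normalization, equal medians, an offset of 16, other filters, the LGN as a random block and the GAPDH ratio as a covariate (1.35). It missed the threshold with signals under 50 set to 50 and without the variance trend (1.07 each), in the 2-month animal alone (1.16), in the 4-month animal alone (0.99), where fewer arrays enter, and with the mean over probe sets of a gene (0.45), and 0 member genes were then called. With arrays left out, 0 to 1 were called. With layer number as replicate block GFAP stayed at 1.07 (adjusted p 0.0263), while 133 probe sets passed in place of 365. Whether layers pair across LGNs was not settled, since the correlations (-0.195 to 0.0837) also hold differences between the LGNs. The block changed no other call among the members. Between the layer classes 0 member genes were called with quantile normalization, equal medians, no filter, no trend, each animal alone, the GAPDH covariate, the mean over probe sets, and deprived or nondeprived layers only, and 0 to 2 with arrays left out. ALDH1L1 (-0.67, adjusted p 0.0151) joined GLUL without deprived layer 2 of the ipsilateral LGN after 4 months, and SLC1A3 took its place without the array that stood apart. Among single layers 1 gene was called in the 2-month animal alone (SLC1A2), and 0 to 1 with arrays left out. The gene called with an array left out was GFAP, without nondeprived layer 5 of the contralateral LGN after 4 months (adjusted p 0.0362 in limma). The layer call of GLUL MmugDNA.15517.1.S1_at had adjusted p between 0.0183 and 0.158 with arrays left out, and 0.193 with equal medians. Of the other astrocyte genes in deprived parvocellular layers, 0 were called without the trend or in either animal alone, and 1 with equal medians or the replicate block.

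Signs turned for values that passed no test, and the cause was not tested. For deprivation in parvocellular layers they were SOX9 at -0.15 (floor of 50) and -0.86 (2 months), VIM at -0.020 and -0.079 and SLC1A2 at -0.017 (2 months), and SLC1A3 at 0.11 and 0.16 (4 months). In magnocellular layers they were VIM at -0.11 (equal medians), -0.18 (2 months) and 0.29 (4 months), SLC1A3 at -0.00032 (equal medians), GFAP MmuSTS.1721.1.S1_at at 0.42 (4 months) and 0.092 (GAPDH covariate), and GLUL MmugDNA.15517.1.S1_at at 0.12 (4 months) and 0.23 (GAPDH covariate). Between the classes they were GFAP MmuSTS.1721.1.S1_at at 0.0033 and SLC1A3 at 0.070 (2 months), SLC1A2 at -0.15 (4 months) and -0.11 (nondeprived only), SOX9 at -0.13 (GAPDH covariate), and VIM at -0.21 and GLUL at 0.027 (deprived only). Outer minus inner, GFAP was at -0.023 (quantile) and -0.14 (2 months). With arrays left out, signs turned in magnocellular layers for GFAP MmuSTS.1721.1.S1_at (-0.37 to 0.20), GLUL (-0.55 to 0.20), SLC1A2 (-1.03 to 0.59) and VIM (-0.037 to 0.34), between the classes for GFAP MmuSTS.1721.1.S1_at (-0.18 to 0.017) and SLC1A2 (-0.19 to 0.32), in parvocellular layers for SLC1A3 (-0.14 to 0.036) and VIM (-0.031 to 0.19), and for GFAP between the animals (-0.47 to 0.13) and outer minus inner (-0.11 to 0.19).

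Counts over all probe sets depended on the processing. Called probe sets in deprived parvocellular layers numbered 365, against 76 with equal medians, 596 with a mean signal of 100 or more, 15 without trend and 136 to 457 with arrays left out. Between the classes 1348 passed, against 763 with equal medians and 973 to 1822 with arrays left out. In magnocellular layers 0 passed, against 46 in the 4-month animal alone. With 2 animals and 4 magnocellular pairs, the number of arrays limits every comparison, and a missed threshold is not an absence of change.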
